A study of Mus musculus with 8 samples.

Results

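In 4 mouse induced pluripotent stem (iPS) cell clones, 480 of 13200 genes tested lay outside the whole range spanned by embryonic stem (ES) cells and embryonic fibroblasts (MEF). Of these, 394 were above the range and 86 below it. A gene was taken when all 4 clones exceeded the highest of the 4 reference libraries, or fell short of the lowest, by at least 1 log2 unit. Values were RPKM (reads scaled to gene length and library size) on the log2(RPKM + 1) scale, and genes entered when 2 or more of the 8 libraries reached an RPKM of 1. The distance between the nearest clone and the nearest reference is called the gap. The choice used all 8 values of a gene, so the levels of these genes are described without a test.

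The clones came from BALB/c cells. The 3F+IL6 pair was made from mouse embryonic fibroblasts with Oct4, Klf4 and Sox2 (3 factors) and is labelled as treated with IL6 at 10 ng/mL. The 4F pair is labelled only as 4F iPS clones, with no treatment. The references were 2 libraries of D3 GFP ES cells, of the 129S2/SvPas background, and 2 libraries of BALB/c MEF. Cell type and strain therefore cannot be told apart in any comparison with ES cells. The labels call the clones of each kind independently derived and the ES and MEF libraries biological replicates. Each kind rests on 2 clones, and no age, sex, passage or culture oxygen was given in the sources used here. Below, pairs of values are for clone or replicate 1 and then 2.

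Depth was estimated at 11700000 to 18100000 reads per library. The 8 pluripotent cell markers summed to 4997 to 6122 RPKM in the clones, 4876 and 4996 in ES and 6.75 and 8.48 in MEF. The 13 fibroblast markers summed to 150.2 to 295 RPKM in the clones, 11.8 and 12.1 in ES and 2836 and 2828 in MEF. In such bulk libraries, fewer cells of a type and less RNA per cell cannot be told apart. 3F+IL6 clone 2 had the highest fibroblast sum of the clones and differed from its partner elsewhere too: Cer1, a secreted Nodal antagonist, measured 0.129 and 14.4 RPKM in this pair and 0 and 0.046 in 4F. Pou5f1 (Oct4) was at 1002 and 1014 RPKM in 3F+IL6, 1003 and 939.6 in 4F and 953 and 938 in ES, and Sox2 at 162 and 182, 164 and 177 and 159.9 and 149. Klf4 was at 24.8 and 54.8 RPKM in 3F+IL6, 49.2 and 48.3 in 4F, 68.2 and 69 in ES and 18.1 and 17.5 in MEF. Myc was at 5.09 and 16.8 RPKM in 3F+IL6, 53 and 54.6 in 4F, 20.9 and 20.4 in ES and 62.4 and 62.4 in MEF. None of these 4 was among the 480 genes; reads of introduced and native copies were not told apart here.

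Several of the pathways met below are textbook programmes. Cells short of oxygen stabilise hypoxia-inducible factors, which bind the core sequence ACGTG and switch on glycolytic enzymes, glucose and lactate carriers and mitophagy genes. Interferons act through STAT and IRF transcription factors on elements of the form GAAANNGAAA to induce antiviral and antigen-presentation genes. Serum response factor (SRF) binds the CArG box and, with cofactors released when actin polymerises, drives genes of the cytoskeleton and of adhesion. Mouse ES cells can move from a naive to a primed state, in which Otx2, Pou3f1, Fgf15 and Dnmt3b are typically higher.

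Genes above the range made up 2.98% of the genes tested and genes below it 0.652%. All 4 clones lay above every reference by any amount for 3106 genes (23.5%), below every reference for 1965 (14.9%) and wholly within the range for 4375 (33.1%). With limma on all 8 libraries and Benjamini-Hochberg adjustment over all genes, both kinds of clone were higher than both references for 2355 genes (17.8%) and lower for 1394 (10.6%). These 4 contrasts share libraries and were also used by the choice, so nothing is read from the fact that all 394 and all 86 genes are among them. The limma counts given below for single lists include the genes outside the range and are descriptions too. The median gene above the range stood 1.89 log2 units above ES and 2.48 above MEF, and the median gene below it stood at -1.57 and -2.43, against 0.01 and 0.26 over all genes tested. The highest reference was an ES library for 313 of the 394 genes above (79.4%), and the lowest was an ES library for 70 of the 86 below (81.4%). These shares were not counted over all genes tested. The median ES minus MEF difference was 0.48 log2 units for the genes above, -0.61 for those below and 0.27 over all genes tested. Of the genes outside the range, 82.1% lay above it, but 69.4% after quantile normalization and 77.6% after median centring; the share of limma calls that were higher was 62.8%, but 49.2% after quantile normalization. The median clone-minus-MEF difference over all genes was 0.26 as deposited, 0.17 after median centring and 0.08 after quantile normalization.

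**Figure D1:**
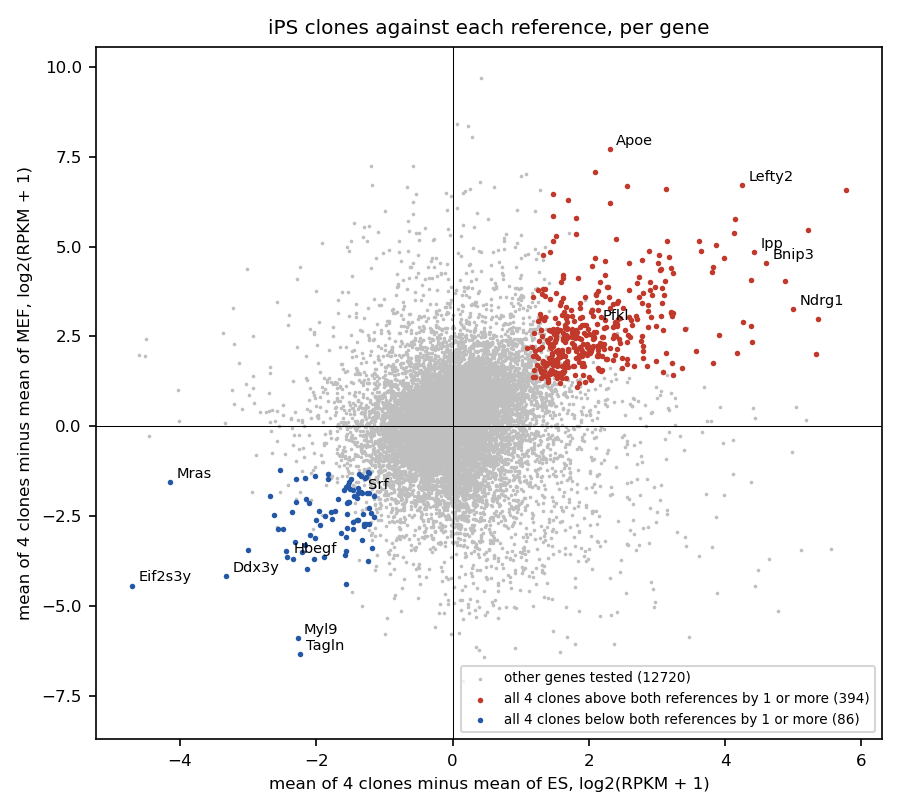
Each point is 1 of the 13200 genes tested; the x axis is the mean of the 4 clones minus the mean of ES and the y axis the mean of the 4 clones minus the mean of MEF, both on the log2(RPKM + 1) scale. The 394 genes above the range (red) fill the upper right and the 86 below it (blue) the lower left, with Tagln and Myl9 farthest down and Eif2s3y farthest left; most other genes (grey) surround 0.

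Of 24 lists of pathway and process genes, 5 held more than 20% of their tested genes above the range. They were epithelial junctions and regulators (15 of 39, 38.5%), primed pluripotency (7 of 19, 36.8%), interferon response (11 of 32, 34.4%), low-oxygen response (7 of 26, 26.9%) and glycolysis (6 of 26, 23.1%). None of these 5 had a gene below the range. The list with the highest share below was smooth muscle and sarcomere, with 3 of 19 (15.8%). The amino acid stress (ATF4), sterol synthesis and 2-cell stage lists had no gene outside the range on either side. The same held for the lists of calcium and actin signalling of the cell surface and of RNAs without a poly-A tail. The lists were written with earlier results of these data known, so their shares are descriptions.

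**Figure D2:**
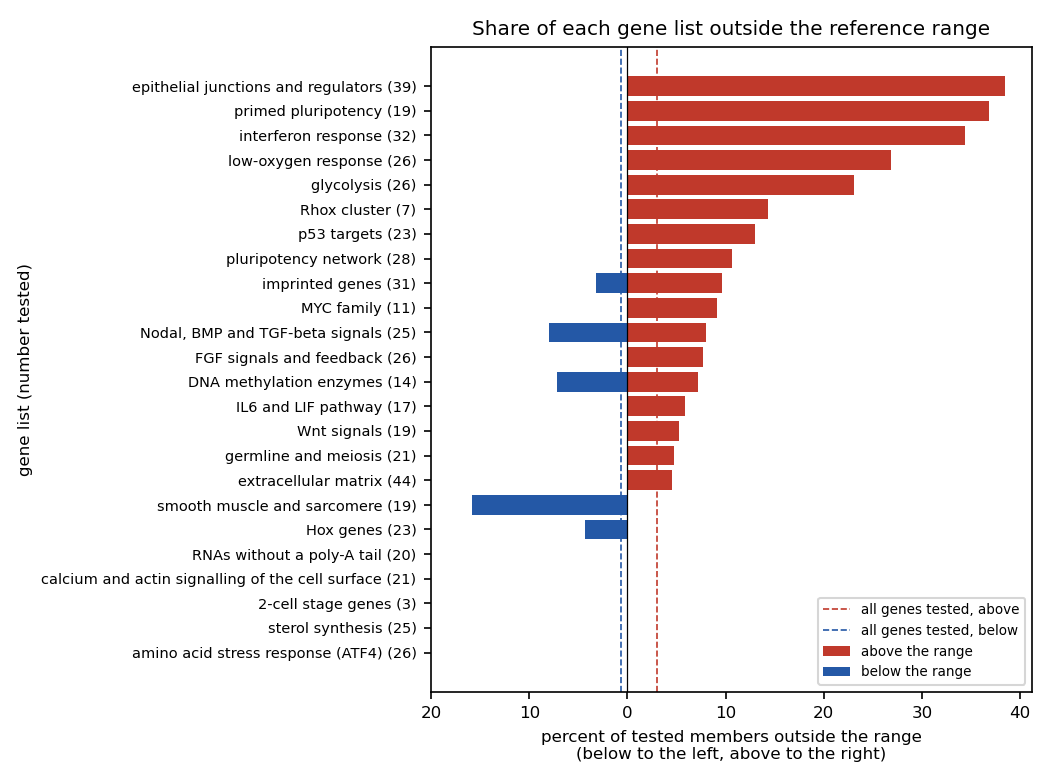
Bars give the percent of each list's tested genes that lay above the range (red, to the right) or below it (blue, to the left); the number tested is in brackets and dashed lines mark 2.98% and 0.652%, the shares over all genes tested. Epithelial, primed pluripotency and interferon genes reach 38.5%, 36.8% and 34.4% above, and smooth muscle genes 15.8% below.

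The low-oxygen genes above the range were Bnip3, Ddit4, Ndrg1, Ankrd37, Aldoc, Egln3 and Pgk1. RefSeq promoter windows (GRCm38.p6, 250 bases before to 50 after a start) were found for 6 of these 7 genes, and all 6 held ACGTG on either strand. The same was true of 15 of the 21 matched genes of the whole low-oxygen list (71.4%). It was also true of 87 of the 306 matched genes above the range (28.4%), near the 29.4% of all matched genes tested. Stretches of 4 of these windows are given 5′ to 3′ on the gene's strand because they carry the ACGTG core, in capitals, which in Bnip3 is read on both strands as a palindrome. A match is a description, not a bound site or a cause.
Bnip3: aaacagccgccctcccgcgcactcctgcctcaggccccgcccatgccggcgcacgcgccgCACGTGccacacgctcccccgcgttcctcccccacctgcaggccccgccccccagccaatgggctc
Ankrd37: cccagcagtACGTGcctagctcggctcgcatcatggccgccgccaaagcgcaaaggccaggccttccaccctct
Ddit4: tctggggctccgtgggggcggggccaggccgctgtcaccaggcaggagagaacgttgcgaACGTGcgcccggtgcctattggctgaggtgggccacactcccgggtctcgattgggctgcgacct
Egln3: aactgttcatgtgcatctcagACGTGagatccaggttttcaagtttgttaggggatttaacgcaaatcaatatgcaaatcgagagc
The stretches lie at chr7:138909549-138909674 (Bnip3), chr8:46000027-46000100 (Ankrd37), chr10:59951893-59952017 (Ddit4) and chr12:54204039-54204124 (Egln3), all on the minus strand. The first capital stood 108 bases before the start in Bnip3, 241 in Ankrd37, 187 in Ddit4 and 229 in Egln3.

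Bnip3, a mitophagy receptor of the outer mitochondrial membrane (chr7:138890836-138909519, minus strand), was at 255 and 106 RPKM in 3F+IL6, 192 and 198 in 4F, 5.72 and 7.19 in ES and 6.84 and 6.63 in MEF. Every clone was far above every reference, and 3F+IL6 clone 2 was the lowest of the clones. Ddit4, an inhibitor of the growth kinase complex mTORC1 (chr10:59949669-59951834), was at 339 and 146 RPKM in 3F+IL6, 278 and 254 in 4F, 7.63 and 6.95 in ES and 13.7 and 13.6 in MEF. MEF was above ES, and even the lowest clone, 3F+IL6 clone 2, was far above MEF. Ndrg1, a stress-induced gene used as a hypoxia marker, was at 114 and 38.7 RPKM in 3F+IL6, 86.5 and 74.6 in 4F, 1.26 and 1.37 in ES and 6.69 and 6.71 in MEF. Egln3, a prolyl hydroxylase that marks hypoxia-inducible factors for destruction and is itself induced by them, was at 41.3 and 20 RPKM in 3F+IL6, 21.9 and 24.4 in 4F, 1.32 and 1.19 in ES and 5.3 and 5.39 in MEF. Its references differed from each other, with MEF above ES, and all clones were above both. Ankrd37, a small ankyrin-repeat protein, was at 30.3 and 15.6 RPKM in 3F+IL6, 27.2 and 23.5 in 4F, 2.46 and 2.28 in ES and 2.49 and 2.75 in MEF. In the same way 3F+IL6 clone 2 was the lowest clone for Ndrg1, Egln3 and Ankrd37.

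Glycolytic genes above the range were Slc16a3, Aldoc, Pfkl, Pfkp, Aldoa and Pgk1, of which Aldoc and Pgk1 also stand in the low-oxygen list. Slc16a3, the lactate exporter MCT4, was at 113 and 76.3 RPKM in 3F+IL6, 90.7 and 80.2 in 4F, 7.3 and 7.57 in ES and 12.9 and 12.5 in MEF. All clones were far above both references, with 3F+IL6 clone 2 the lowest. Pfkl and Pfkp, liver and platelet forms of phosphofructokinase, ranged from 108 to 186 and from 48.4 to 90.8 RPKM over the 4 clones. Their highest references were ES libraries, at 34.1 and 21.3 RPKM. Aldoa, the main aldolase of muscle and of many dividing cells, was at 2317 and 1279 RPKM in 3F+IL6, 2114 and 1856 in 4F, 579.8 and 577 in ES and 557 and 553 in MEF. Aldoc, the brain form, was at 46.5 and 15.9 RPKM in 3F+IL6, 46 and 39.9 in 4F, 2.92 and 2.71 in ES and 0.76 and 0.549 in MEF. Pgk1, phosphoglycerate kinase, was at 1869.5 and 889.9 RPKM in 3F+IL6, 1702 and 1614 in 4F, 247 and 246 in ES and 441 and 438 in MEF, with a gap of 1.01 that depended on the lowest clone, 3F+IL6 clone 2. Aldoa, Pgk1 and other glycolytic genes have pseudogene copies, and how reads shared with them were counted is not given in the sources used here.

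Counting these genes, limma placed both kinds of clone above both references for 12 of the 26 low-oxygen genes (46.2%) and 15 of the 26 glycolysis genes (57.7%), against 17.8% of all genes tested. Ldha, lactate dehydrogenase A, was at 1449 and 905 RPKM in 3F+IL6, 1345 and 1242 in 4F, 256 and 252 in ES and 588 and 591 in MEF. Tpi1, triose phosphate isomerase, was at 682 and 378 RPKM in 3F+IL6, 632 and 552 in 4F, 90.2 and 90.6 in ES and 219 and 215 in MEF. Other genes of the lists did not leave the range: Vegfa, the vascular growth factor, was at 20.1 and 15.9 RPKM in 3F+IL6, 19.9 and 20.4 in 4F, 7.68 and 7.44 in ES and 33.9 and 34.2 in MEF, with every clone between ES and MEF. Adm, adrenomedullin, was likewise between ES and MEF at 48 and 14.4 RPKM in 3F+IL6, 23.5 and 24.5 in 4F, 0.278 and 0.244 in ES and 77.5 and 74.3 in MEF. The hexokinase Hk2 was lower in every clone than in ES, at 63.3 and 55.2 RPKM in 3F+IL6, 60.8 and 65.4 in 4F and 77.1 and 76.7 in ES. Eno3, the muscle enolase, was the only gene of the 2 lists that limma placed below both references, at 12.7 and 12.4 RPKM in 3F+IL6, 9.02 and 7.17 in 4F, 21.2 and 24.4 in ES and 41.2 and 43.6 in MEF. Outside both lists, Hif1a, the oxygen-regulated subunit itself, was under every reference in all 4 clones and was placed below both references by limma, with a gap of 0.17, at 31.2 and 37.6 RPKM in 3F+IL6, 31.3 and 33.5 in 4F, 42.4 and 44.6 in ES and 43.4 and 42.7 in MEF; its activity is regulated mainly at the protein level, which these data do not measure. Hif3a, another family member, was above the range at 7.72 and 3.8 RPKM in 3F+IL6, 7.52 and 6.79 in 4F, 0.313 and 0.423 in ES and 0 and 0.00774 in MEF.

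3F+IL6 clone 2 was the lowest clone for all 11 distinct low-oxygen and glycolysis genes above the range, and for 187 of all 394 genes above it (47.5%). How often it was the lowest clone over all genes tested was not counted. The median difference of 3F+IL6 clone 2 from clone 1 was -0.73 log2 units over the 26 low-oxygen genes and -0.55 over the 26 glycolysis genes, against 0.07 over all genes tested. Between the 4F clones it was -0.01 and -0.09. Without 3F+IL6 clone 2, 11 low-oxygen and 11 glycolysis genes were above the range, in place of 7 and 6, while the count over all genes tested was 528 in place of 394. This clone also had the highest fibroblast marker sum of the 4 (295 RPKM); its part in these values was not tested.

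**Figure D3:**
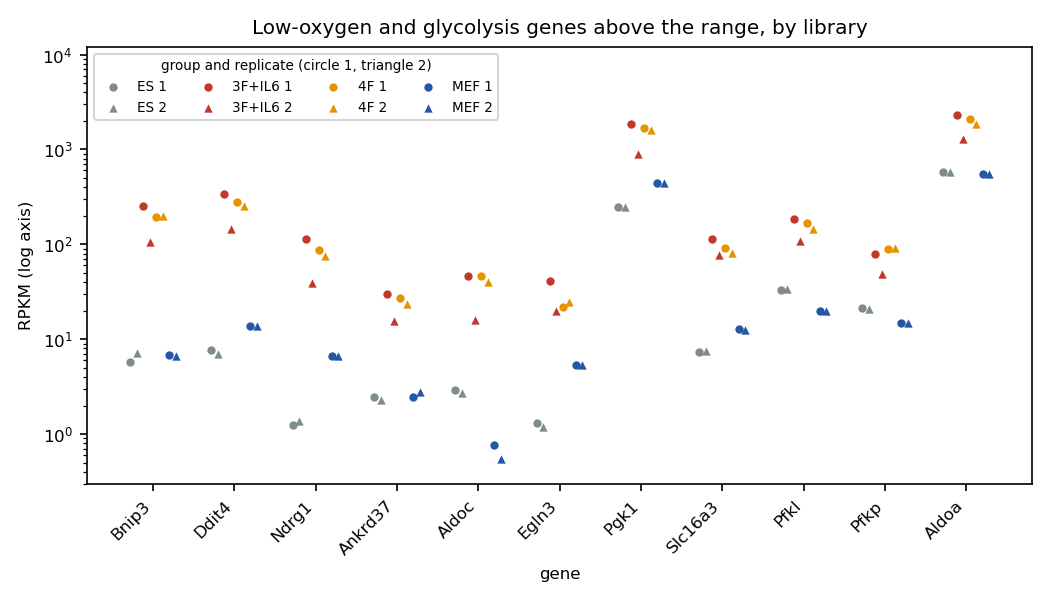
RPKM on a log axis of the 11 low-oxygen and glycolysis genes above the range in each of the 8 libraries; circles are clone or replicate 1 and triangles clone or replicate 2. For every gene 3F+IL6 clone 2 (red triangle) is the lowest clone and still above the highest reference, from Bnip3 at 106 against 7.19 RPKM to Pgk1 at 889.9 against 441.

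The epithelial list gave the highest share above the range. Claudins, the strand-forming proteins of tight junctions, were represented by Cldn3, Cldn4, Cldn6, Cldn7 and Cldn9. Cldn7 (chr11:69964779-69967885) was at 46.8 and 31.8 RPKM in 3F+IL6, 47.3 and 39.3 in 4F, 1.32 and 1.44 in ES and 0 and 0 in MEF. It was listed at 0 in both MEF libraries and its gap, 3.75, was the largest of the list. Cldn6, found in early embryonic epithelium, was at 106 and 94.7 RPKM in 3F+IL6, 104 and 93.1 in 4F, 10.1 and 10.8 in ES and 0.0375 and 0.0367 in MEF. Cldn4 was already present in ES, at 19.7 and 20.3 RPKM, and was at 143 and 78.7 in 3F+IL6 and 152 and 135 in 4F. Regulators of the epithelial state were above the range as well. Esrp1, an RNA-binding protein that sets epithelial splice forms, was at 22.1 and 19.9 RPKM in 3F+IL6, 17.5 and 16.7 in 4F, 0.486 and 0.374 in ES and 0 and 0.028 in MEF. Grhl2, a transcription factor that activates junction genes, was at 14.4 and 16 RPKM in 3F+IL6, 15.5 and 15.6 in 4F, 1.14 and 1.26 in ES and 0.0111 and 0.0218 in MEF. All 4 clones were close to each other for both regulators and neither reference approached them. Ovol2, a zinc-finger repressor of mesenchymal genes, was at 5.81 and 5.23 RPKM in 3F+IL6, 5.9 and 5 in 4F, 1.17 and 1.19 in ES and 0 and 0.0375 in MEF.

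Other epithelial genes above the range serve polarity, traffic and surface proteolysis. Ap1m2, the medium chain of the epithelial AP-1B sorting adaptor, was at 40.5 and 33.6 RPKM in 3F+IL6, 36.4 and 36.8 in 4F, 2.34 and 1.85 in ES and 0.0323 and 0.0949 in MEF. Crb3, a component of the apical Crumbs complex, was at 26 and 23.4 RPKM in 3F+IL6, 33.8 and 24.5 in 4F, 2.01 and 2.11 in ES and 0.0987 and 0 in MEF. For both, the lowest clone was over 10 times the highest reference in RPKM. Epcam, an adhesion molecule of epithelia and pluripotent cells, was at 192 and 161 RPKM in 3F+IL6, 167 and 162 in 4F, 40.6 and 37.7 in ES and 0.19 and 0.372 in MEF. Cdh1 (E-cadherin) rose above both references by limma without reaching the gap of 1, at 131 and 125 RPKM in 3F+IL6, 123 and 115 in 4F, 80.5 and 81.4 in ES and 0.288 and 0.184 in MEF. Counting the 15 genes above the range, limma placed 25 of the 39 genes (64.1%, against 17.8% of all genes tested) above both references. It placed none below (against 10.6%). Among those that did not pass, Spint2, a protease inhibitor, was at 111 and 113 in 3F+IL6, 119 and 108 in 4F and 109 and 105 RPKM in ES, and Dsg2, a desmosomal cadherin, lay between MEF and ES in every clone. Keratins of stratified epithelium, Krt5, Krt14 and Krt15, and their regulator Trp63 were under 1 RPKM in all 4 clones.

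Interferon-responsive genes above the range fell into antigen presentation (Psmb8, Psmb9, Tap1 and H2-D1), antiviral effectors (Bst2, Oasl2, Oas1a, Rtp4 and Gbp2) and transcription factors of the pathway (Irf7 and Stat2). Among RefSeq promoter windows, 4 of 10 matched genes of this group held GAAANNGAAA on either strand, as did 13 of the 26 matched genes of the whole list (50.0%), 24 of the 306 matched genes above the range (7.84%) and 3.56% of all matched genes tested. The stretches of Bst2 and Stat2 are shown because they carry the element, in capitals; in Bst2 2 overlapping matches form a single capital run, and in Stat2 the element is on the opposite strand.
Bst2: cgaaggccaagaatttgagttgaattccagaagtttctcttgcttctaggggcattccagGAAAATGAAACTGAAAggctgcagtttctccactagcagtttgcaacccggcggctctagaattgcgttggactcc
Stat2: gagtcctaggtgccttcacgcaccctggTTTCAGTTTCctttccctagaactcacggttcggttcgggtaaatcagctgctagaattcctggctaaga
They lie at chr8:71537527-71537662 (minus strand) and chr10:128270248-128270345 (plus strand), and the match is a description only.

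Bst2 (tetherin), which holds budding virus at the cell surface, was at 233 and 275 RPKM in 3F+IL6, 249 and 204 in 4F, 23.7 and 25.8 in ES and 27.8 and 27.5 in MEF. The 4 clones were alike, and both references were several-fold lower. Psmb9 and Psmb8 encode catalytic subunits of the immunoproteasome and flank Tap1, the peptide transporter, within chr17:34181987-34201454. Psmb9 was at 17.6 and 15.6 RPKM in 3F+IL6, 15.5 and 13.8 in 4F, 0.817 and 1.03 in ES and 0.217 and 0.424 in MEF. Psmb8 was at 22.6 and 19.07 RPKM in 3F+IL6, 13 and 11.5 in 4F, 0.0526 and 0.221 in ES and 1.95 and 1.91 in MEF, and here both 3F+IL6 clones were above both 4F clones. Tap1 was at 11.9 and 7.55 RPKM in 3F+IL6, 12.2 and 9.45 in 4F, 0.548 and 0.537 in ES and 2.47 and 2.42 in MEF. H2-D1, a classical class I molecule, was at 55 and 81.2 RPKM in 3F+IL6, 53.7 and 41.1 in 4F, 8.15 and 7.94 in ES and 17.3 and 16.1 in MEF; class I genes are near-identical to each other and differ between strains, so its counts are uncertain. Irf7, the main regulator of interferon production, was at 6.05 and 10.5 RPKM in 3F+IL6, 5.41 and 4.92 in 4F, 0 and 0.144 in ES and 0.754 and 1.24 in MEF. Stat2 was at 18.9 and 15.6 RPKM in 3F+IL6, 17.3 and 18.6 in 4F, 5.83 and 5.63 in ES and 4.42 and 4.4 in MEF.

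Counting the 11 genes above the range, limma placed 20 of the 32 interferon genes (62.5%, against 17.8% of all genes tested) above both references. Ddx58 and Ifitm3 were among them but did not reach the gap, with Ifitm3, a restriction factor of viral entry, at 469.7 and 469 RPKM in 3F+IL6, 377 and 335 in 4F, 85.2 and 86.2 in ES and 259.9 and 269 in MEF. Others did not clear MEF: B2m, the light chain of class I molecules, was at 198 and 292 RPKM in 3F+IL6, 182 and 157 in 4F, 12.7 and 11.3 in ES and 281 and 278 in MEF, and Isg15, a ubiquitin-like modifier, at 11.4 and 21.2 RPKM in 3F+IL6, 4.34 and 5.44 in 4F, 0.0875 and 0.0919 in ES and 10 and 10.2 in MEF. For both, MEF lay among the clones and ES was far lower. Ifit2, a cytosolic antiviral effector, was lower in every clone than in MEF. The 14 blood and macrophage markers summed to 103 to 132 RPKM in the clones, 100.5 and 104 in ES and 8.05 and 8.26 in MEF. The defining genes Ptprc, Csf1r and Cd53 were under 1 RPKM in all 4 clones, whereas Lyz2, lysozyme, was above the range at 18.1 and 28.7 RPKM in 3F+IL6, 19.13 and 16.2 in 4F, 0 and 0 in ES and 3.29 and 3.04 in MEF. limma placed 5 of the 7 markers tested (71.4%, against 17.8% of all genes tested) above both references: Cd68, Lyz1, Lyz2, Tyrobp and Gata1. The part of such cells in the interferon values was not tested.

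Chosen after their values were seen, several secreted immune genes were also above the range. The chemokine genes Ccl11 and Ccl8 are neighbours at chr11:82057823-82116799. Ccl11 (eotaxin), also named by its gap, was at 17.7 and 42.3 RPKM in 3F+IL6, 14.8 and 13.9 in 4F, 0 and 0 in ES and 0.213 and 0.261 in MEF. Ccl8 was at 20.1 and 33.4 RPKM in 3F+IL6, 13 and 12.1 in 4F, 0 and 0 in ES and 1.89 and 1.27 in MEF. Both were listed at 0 in ES and were highest in 3F+IL6 clone 2. Saa3, an acute-phase apolipoprotein, was at 32.7 and 48.5 RPKM in 3F+IL6, 20.7 and 18.7 in 4F, 4.36 and 2.69 in ES and 0.908 and 0.777 in MEF. Lcn2, a siderophore-binding protein, was at 4.06 and 8.32 RPKM in 3F+IL6, 2.46 and 1.25 in 4F, 0 and 0 in ES and 0 and 0 in MEF, with all references at 0.

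Genes of the primed state above the range were Lefty2, Lefty1, Otx2, Pou3f1, Fgf15, Dnmt3b and Cldn6. Lefty2 and Lefty1, secreted inhibitors of Nodal that Nodal itself induces, lie together at chr1:180893108-180938400. Lefty2 was at 90.7 and 184 RPKM in 3F+IL6, 92.4 and 113 in 4F, 4.95 and 5.26 in ES and 0.0504 and 0.18 in MEF. Lefty1 was at 67.5 and 85.8 RPKM in 3F+IL6, 44.6 and 48.4 in 4F, 6.86 and 7.55 in ES and 1.36 and 0.819 in MEF. For both, 3F+IL6 clone 2 was the highest clone and MEF the lowest group. Otx2, a transcription factor of the primed epiblast, was at 49.3 and 43.9 RPKM in 3F+IL6, 27.1 and 27.5 in 4F, 2.95 and 3.37 in ES and 0.0652 and 0 in MEF, and Pou3f1 at 30.3 and 39.2 RPKM in 3F+IL6, 16.8 and 14.8 in 4F, 3.38 and 2.74 in ES and 0.0922 and 0.018 in MEF. For both genes the 3F+IL6 clones were above the 4F clones. Dnmt3b, a de novo DNA methyltransferase, was at 142 and 199 RPKM in 3F+IL6, 86.4 and 85.2 in 4F, 24 and 22.8 in ES and 0.626 and 0.65 in MEF, again in the order 3F+IL6, 4F, ES and MEF. None of the 7 had 3F+IL6 clone 2 as its lowest clone.

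Counting the 7 genes above the range, limma placed 11 of the 19 primed genes (57.9%, against 17.8% of all genes tested) above both references. Among the 11 was Nodal, at 21.8 and 24.1 RPKM in 3F+IL6, 18.2 and 19.4 in 4F, 10.6 and 10.2 in ES and 0.0267 and 0 in MEF. Fgf5, a common mark of the primed state, was under MEF in 3 of the 4 clones, at 1.59 and 5.45 RPKM in 3F+IL6, 0.646 and 0.478 in 4F, 0.178 and 0.106 in ES and 2.51 and 3.15 in MEF. T (brachyury) and Eomes, which mark the onset of gastrulation, stayed under 2 RPKM in every clone. Of the 28 genes of the pluripotency network, 3 were above the range (10.7%, against 2.98% of all genes tested): Dppa3, Lin28a and Fgf4. Dppa3 (Stella), which protects DNA from loss of methylation in the zygote, was at 12.8 and 14.9 RPKM in 3F+IL6, 13.1 and 15.5 in 4F, 0.724 and 0.845 in ES and 0.0711 and 0 in MEF. Lin28a, an RNA-binding inhibitor of let-7 processing, was at 84.6 and 101 RPKM in 3F+IL6, 83.5 and 85.9 in 4F, 26.5 and 27.1 in ES and 0.143 and 0.125 in MEF. Fgf4, the growth factor that drives exit from the naive state, was at 96.3 and 92.1 RPKM in 3F+IL6, 89.4 and 92.5 in 4F, 32.9 and 32.4 in ES and 0.0366 and 0.0896 in MEF and lies beside Fgf15 at chr7:144847367-144900953. Nanog was lower in every clone than in ES, at 131 and 151 in 3F+IL6, 169 and 181 in 4F and 252 and 245 RPKM in ES.

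Of the 14 genes of DNA methylation, Dnmt3b was above the range (7.14%, against 2.98% of all genes tested). Mbd2, a reader of methylated DNA, was below it (7.14%, against 0.652%). Mbd2 was at 8.86 and 8.3 RPKM in 3F+IL6, 7.41 and 7.43 in 4F, 25.5 and 24.9 in ES and 39.4 and 38.2 in MEF. Tet1, which oxidises methylcytosine, passed limma against both references without reaching the gap, at 30.6 and 29.5 RPKM in 3F+IL6, 31.1 and 31.8 in 4F, 14.3 and 14.2 in ES and 0.16 and 0.171 in MEF.

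From the p53 target list, 3 of 23 genes (13%, against 2.98% of all genes tested) were above the range. Counting these 3, limma placed 10 (43.5%, against 17.8%) above both references. Bbc3 (PUMA), which promotes apoptosis at mitochondria, was at 36.2 and 28.3 RPKM in 3F+IL6, 49.1 and 40.4 in 4F, 6.64 and 6.23 in ES and 4.05 and 4.43 in MEF. Pmaip1 (NOXA), of the same family, was at 54.7 and 45.5 RPKM in 3F+IL6, 75.6 and 75.2 in 4F, 14.4 and 13.6 in ES and 10.8 and 10.3 in MEF, and Gdf15, a stress-induced cytokine, at 9.89 and 7.58 RPKM in 3F+IL6, 16.9 and 10.5 in 4F, 1.85 and 1.57 in ES and 2.01 and 2.12 in MEF. For these 3 genes 3F+IL6 clone 2 was the lowest clone, and 5 genes of the list were above the range without it. Cdkn1a (p21), the classical target, was between ES and MEF in every clone, at 65.3 and 60.7 RPKM in 3F+IL6, 82.5 and 72.5 in 4F, 10.6 and 10.5 in ES and 208 and 208 in MEF. Trp53 itself was lower in every clone than in ES, at 149 and 188 in 3F+IL6, 145 and 141 in 4F and 214 and 213 RPKM in ES.

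Imprinted genes, which are read from a single parental copy, were above the range for 3 of 31 (9.68%, against 2.98% of all genes tested) and below it for 1 (3.23%, against 0.652%). Ascl2, a transcription factor of the trophoblast, was at 9.01 and 6.42 RPKM in 3F+IL6, 10.2 and 9.36 in 4F, 0.316 and 0.332 in ES and 0.0349 and 0.0684 in MEF. Phlda2, which restrains placental growth, was at 80.1 and 62.8 RPKM in 3F+IL6, 63.2 and 50.4 in 4F, 22.4 and 22 in ES and 0 and 0.233 in MEF. Snurf was at 42.8 and 44.2 RPKM in 3F+IL6, 36.8 and 37.4 in 4F, 0 and 0 in ES and 4.16 and 4.18 in MEF, but it shares its transcript with Snrpn, which was at 40.6 and 41.9 in 3F+IL6, 34.9 and 35.5 in 4F and 34.5 and 35.1 RPKM in ES, so how reads were divided between the pair is uncertain and its value carries that limit. Plagl1, a growth-restraining zinc-finger gene, was below the range, at 0.557 and 0.851 RPKM in 3F+IL6, 0.632 and 0.891 in 4F, 3.82 and 3.84 in ES and 3.65 and 3.97 in MEF.

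Single genes of other lists were above the range too. Mycl1 (L-Myc) was at 7.7 and 15.8 RPKM in 3F+IL6, 8.83 and 10.1 in 4F, 1.36 and 1.34 in ES and 2.09 and 2.03 in MEF. Sfrp2, a secreted Wnt antagonist, was at 17.8 and 18.6 RPKM in 3F+IL6, 15.9 and 14.2 in 4F, 5.67 and 5.89 in ES and 5.82 and 5.61 in MEF, and Tdrd12, a germline gene of the piRNA pathway, at 44.5 and 37.6 RPKM in 3F+IL6, 35.4 and 37.7 in 4F, 6.68 and 6.44 in ES and 0.0695 and 0.068 in MEF. Lama3 and Lama5, chains of basement membrane laminins, reached 6.48 to 9.87 and 23.7 to 29 RPKM in the clones. Among the lists of cell type markers, Apoe, a lipid carrier also listed for endoderm, was at 989 and 939.8 RPKM in 3F+IL6, 1022 and 944 in 4F, 196 and 195 in ES and 3.23 and 4.13 in MEF. Of the 11 endoderm markers tested, 3 were above the range (27.3%, against 2.98% of all genes tested): Apoe, Spink3, a protease inhibitor, at 7.99 and 24.7 RPKM in 3F+IL6, 8.18 and 11.9 in 4F, 1.33 and 1.92 in ES and 0.147 and 0 in MEF, and Hnf4a, a transcription factor of endoderm and liver, at 2.47 and 1.92 RPKM in 3F+IL6, 2.31 and 2.17 in 4F, 0.172 and 0.0603 in ES and 0 and 0 in MEF. Of the other markers, Sox17, Sox7, Afp and Ttr were under 1 RPKM in all 4 clones.

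Outside the lists, the largest gaps belonged to genes of varied function. Ipp, named for its activation by intracisternal A particle elements (chr4:116507549-116538243), was at 155 and 117 RPKM in 3F+IL6, 151 and 157 in 4F, 5.91 and 5.55 in ES and 3.77 and 4.29 in MEF. Its gap, 4.09, was the largest of the named genes above the range. AI662270, an unnamed predicted gene beside Slfn3 that the naming rule left out, had a larger gap, 5.62, at 133 and 109 RPKM in 3F+IL6, 117 and 129 in 4F, 1.23 and 1.24 in ES and 0.241 and 0.314 in MEF. Ndufa4l2, a mitochondrial protein known as a hypoxia-induced gene but not in the list, was at 89.8 and 20.2 RPKM in 3F+IL6, 75.6 and 59.2 in 4F, 0.608 and 0.355 in ES and 0.358 and 0.117 in MEF. 3F+IL6 clone 2 was again the lowest clone. Aass, the first enzyme of lysine breakdown, was at 72.1 and 46.8 RPKM in 3F+IL6, 64.5 and 64.3 in 4F, 2.66 and 2.36 in ES and 0.0747 and 0.219 in MEF. Usp26, an X-linked deubiquitinase of the testis, was at 31.5 and 30.2 RPKM in 3F+IL6, 35.8 and 35.2 in 4F, 1.39 and 1.27 in ES and 0.0134 and 0.0392 in MEF. Gnat2, the cone transducin alpha subunit, was at 30.1 and 30.6 RPKM in 3F+IL6, 26.7 and 30.2 in 4F, 1.02 and 1.27 in ES and 0.45 and 0.372 in MEF, with the 4 clones nearly equal. Gpx2, a glutathione peroxidase of epithelia, was at 24.7 and 35.5 RPKM in 3F+IL6, 32.2 and 26.5 in 4F, 1.76 and 1.15 in ES and 0 and 0.0525 in MEF. Acot1, an acyl-CoA thioesterase, was at 29.3 and 30.4 RPKM in 3F+IL6, 35.1 and 31.2 in 4F, 2.73 and 2.32 in ES and 2.22 and 3.09 in MEF. Pmel, the fibril protein of melanosomes, was at 30.3 and 27.6 RPKM in 3F+IL6, 28.9 and 28.5 in 4F, 2.48 and 2.82 in ES and 0.106 and 0.103 in MEF, and Tmem54 at 9.58 and 11.2 RPKM in 3F+IL6, 9.33 and 8.48 in 4F, 0.175 and 0.123 in ES and 0.258 and 0.101 in MEF. Plac8, chosen after its value was seen, was at 85.2 and 90 RPKM in 3F+IL6, 75.5 and 71.7 in 4F, 0.765 and 1.31 in ES and 19.3 and 18.8 in MEF.

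**Figure D4:**
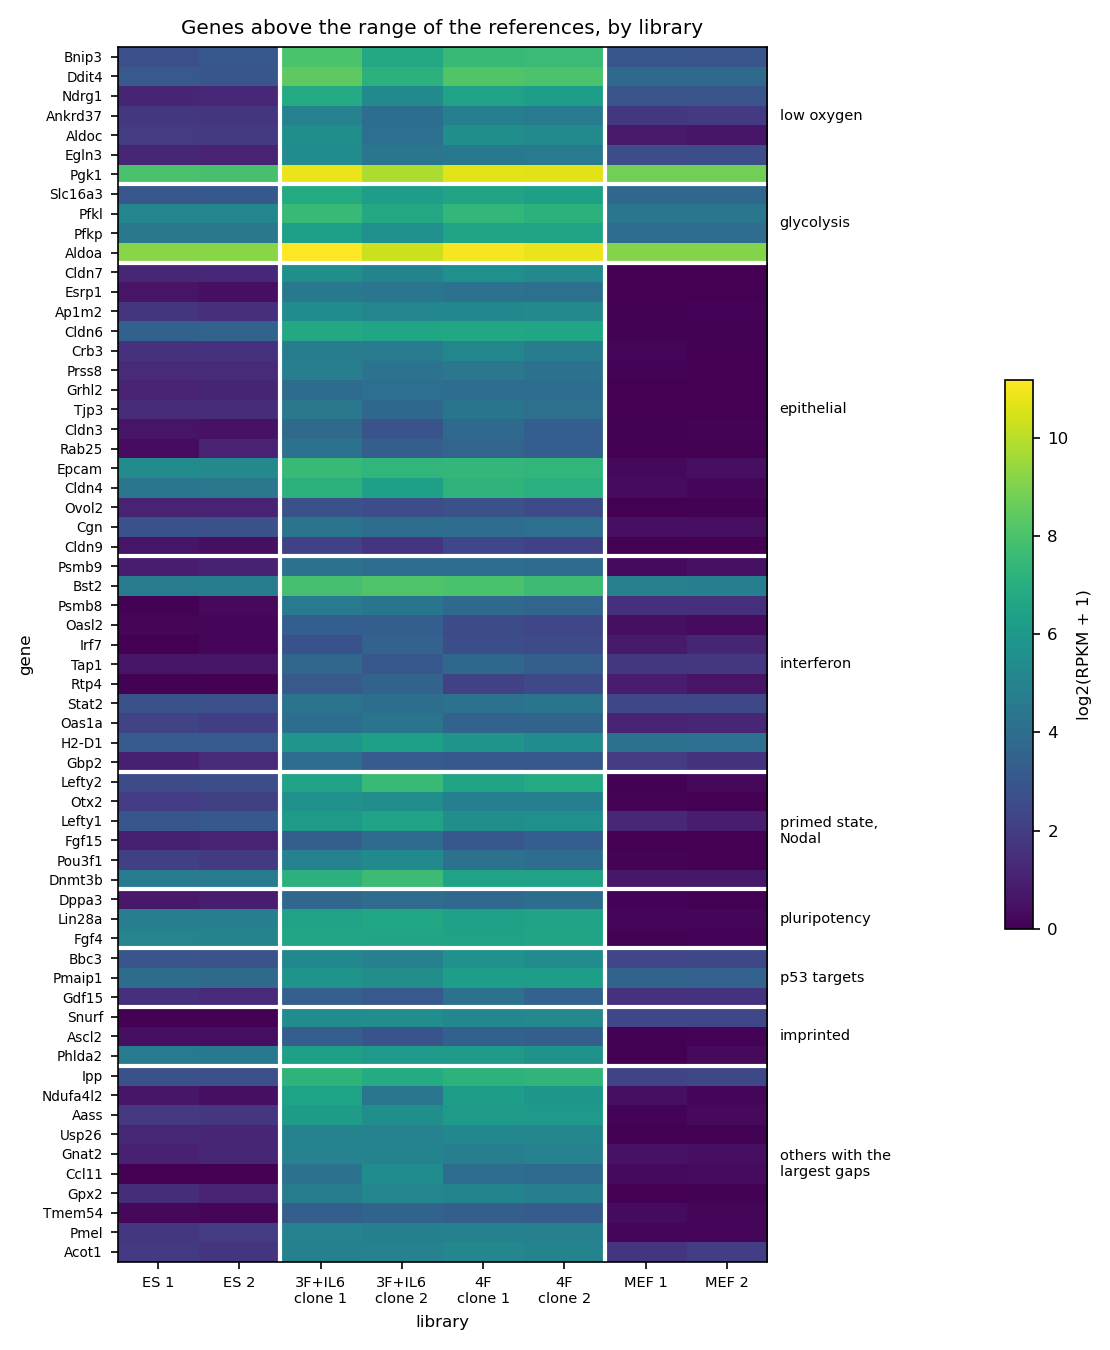
Colour gives log2(RPKM + 1) for listed and named genes above the range (rows) in each library (columns), with white lines between gene groups and between groups of libraries. In each row the 4 middle columns, the clones, are lighter than the ES columns to the left and the MEF columns to the right, by at least 1 unit.

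The named genes with the largest gaps below the range, Eif2s3y (4.20) and Ddx3y (3.13), are Y-linked. Eif2s3y, Uty and Ddx3y lie together at chrY:1010543-1286629. Eif2s3y, a translation initiation subunit, was at 0.337 and 0.674 RPKM in 3F+IL6, 0.43 and 0.404 in 4F, 36.9 and 36.8 in ES and 31.3 and 29.7 in MEF. Ddx3y, an RNA helicase, was at 0.237 and 0.401 RPKM in 3F+IL6, 0.197 and 0.185 in 4F, 11.3 and 11.8 in ES and 21.4 and 21.7 in MEF, and Uty, a histone demethylase homologue, at 0.112 and 0.105 RPKM in 3F+IL6, 0.159 and 0.135 in 4F, 3.98 and 4.03 in ES and 4.05 and 3.24 in MEF. All 4 clones were under 1 RPKM for the 3 genes and both references were several-fold higher. A further Y-linked gene, Kdm5d, did not meet the choice because ES was low too, at 0.0669 and 0.126 RPKM in 3F+IL6, 0.121 and 0.0428 in 4F, 0.148 and 0.144 in ES and 3.07 and 3.13 in MEF. Of the 20 symbols annotated to the Y chromosome, 5 passed the filter and 8 were at 0 in every library. Their X-linked copies are similar in sequence: Eif2s3x was at 217 and 211 RPKM in 3F+IL6, 204 and 219 in 4F, 124 and 127 in ES and 85.1 and 86 in MEF, and how shared reads were counted is not given in the sources used here. Xist, the RNA that coats an inactive X, was at 1.23 and 1.24 RPKM in 3F+IL6, 0.743 and 1.16 in 4F, 0.0103 and 0.0575 in ES and 0.0122 and 0.00598 in MEF, a gap of 0.72. No X-linked gene was below the range, nor was any of the 851 tested on chromosome 4, against 0.652% of all genes tested. On the X, 28 of 493 (5.68%, against 2.98% of all genes tested) were above it, among them Pim2, Klhl13, Usp26 and Pgk1. The sex of the cells was not given in the sources used here.

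Some actin and adhesion genes were also below the range. A list of 46 SRF and actin targets, chosen after these values were seen and therefore no independent evidence, had 13 genes below the range (28.3%, against 0.652% of all genes tested) and none above. They were Acta1, Tagln, Myl9, Vcl, Myo1c, Lasp1, Wdr1, Tubb6, Cfl2, Itga5, Vasp, Srf and Pdlim7. Acta1, Tagln and Myl9 are also the 3 genes of the smooth muscle list below the range. The list of calcium and actin signalling of the cell surface had none of its 21 tested genes outside the range. limma placed 1 of them below both references (4.76%, against 10.6% of all genes tested). The CArG box was found on either strand in the promoter windows of 4 of the 11 matched genes (36.4%), of 10 of the 38 matched genes of the whole list (26.3%), of 6 of the 63 matched genes below the range (9.52%) and of 1.64% of all matched genes tested. Stretches of those 4 promoters follow because they carry the CArG box, in capitals. Srf carries it at 2 places.
Acta1: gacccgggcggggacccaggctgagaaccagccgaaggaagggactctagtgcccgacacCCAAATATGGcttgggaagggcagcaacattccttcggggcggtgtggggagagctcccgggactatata
Myl9: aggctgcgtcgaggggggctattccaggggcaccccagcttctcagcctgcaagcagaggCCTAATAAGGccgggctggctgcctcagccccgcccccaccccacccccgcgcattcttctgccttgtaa
Vcl: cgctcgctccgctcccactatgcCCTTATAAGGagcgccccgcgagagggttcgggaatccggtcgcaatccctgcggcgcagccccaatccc
Srf: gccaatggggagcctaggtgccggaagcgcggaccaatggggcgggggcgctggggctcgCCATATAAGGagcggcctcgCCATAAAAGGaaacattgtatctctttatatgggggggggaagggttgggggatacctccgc
They lie at chr8:123894779-123894908 (minus strand), chr2:156775243-156775372 (plus), chr14:20929148-20929240 (plus) and chr17:46556163-46556304 (minus), from 227 to 62 bases before the start. A match is a description, not a bound site or a cause.

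Srf itself was at 14.5 and 18 RPKM in 3F+IL6, 13.9 and 13.9 in 4F, 39.4 and 38.7 in ES and 57.5 and 56.7 in MEF. Vcl (vinculin), which links integrins to actin, was at 17.3 and 19.5 RPKM in 3F+IL6, 16.4 and 17 in 4F, 67.2 and 67.6 in ES and 231 and 229 in MEF. For both, the clones were alike and MEF was the highest group. Acta1, skeletal muscle actin, was at 1.99 and 1.37 RPKM in 3F+IL6, 1.35 and 1.15 in 4F, 12.4 and 12.2 in ES and 25.8 and 26 in MEF. Tagln (SM22), an actin-binding protein, was at 26.5 and 29.9 RPKM in 3F+IL6, 21.7 and 23.6 in 4F, 125 and 120.2 in ES and 2116 and 2131 in MEF, and Myl9, a myosin light chain, at 7.16 and 9.04 RPKM in 3F+IL6, 6.93 and 5.54 in 4F, 37.5 and 38.4 in ES and 483 and 479.8 in MEF. Here the clones were nearest to ES and MEF was far above both. Itga5, the alpha chain of the fibronectin receptor, was at 20 and 23.9 RPKM in 3F+IL6, 21.7 and 21.2 in 4F, 52.2 and 52.4 in ES and 301 and 302 in MEF, and Vasp, which promotes actin filament growth, at 42 and 55.3 RPKM in 3F+IL6, 45.7 and 44.5 in 4F, 123 and 117 in ES and 124 and 125 in MEF.

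The list of 46 genes was chosen after these values were seen, so the limma share that follows is a description and adds no support. limma placed 26 of the 46 genes (56.5%), the 13 below the range included, below both references and none above. Over all genes tested the share below was 10.6%. Actg1, cytoplasmic gamma actin, was among them at 977 and 1014 RPKM in 3F+IL6, 851 and 844 in 4F, 1516 and 1521 in ES and 4435 and 4424 in MEF, whereas Actb did not pass, at 1449 and 1669 RPKM in 3F+IL6, 1234 and 1267 in 4F, 1479 and 1513 in ES and 5310.3 and 5214 in MEF. Genes of the smooth muscle list that stayed inside the range include Acta2, at 13.6 and 19.9 RPKM in 3F+IL6, 11.7 and 13.8 in 4F, 3.86 and 4.35 in ES and 3562 and 3499 in MEF. Cyr61, an adhesion-responsive secreted protein, was above ES in every clone, at 23.5 and 20.4 RPKM in 3F+IL6, 24.8 and 23.8 in 4F, 13.4 and 12.6 in ES and 785 and 797 in MEF. The fibroblast marker sum was 150.2 to 295 RPKM in the clones and 11.8 and 12.1 in ES. Its part in the values of the 13 genes was not tested.

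Of the 25 genes tested in the list of Nodal, BMP and TGF-beta signals, Id1 and Smad7 were below the range (8%, against 0.652% of all genes tested). Lefty1 and Lefty2 were above it (8%, against 2.98%). Id1, a direct BMP target that supports naive self-renewal, was at 17.6 and 37.9 RPKM in 3F+IL6, 23.7 and 24.6 in 4F, 103 and 104 in ES and 157 and 161 in MEF. 3F+IL6 clone 2 was its highest clone. Smad7, an inhibitor of the pathway that the pathway induces, was at 7.76 and 11.3 RPKM in 3F+IL6, 7.14 and 8.45 in 4F, 27.9 and 26.8 in ES and 29.3 and 30.3 in MEF. Bmp4, the ligand, was lower in every clone than in ES but did not pass against MEF for both kinds of clone, at 7.82 and 11.7 RPKM in 3F+IL6, 7.68 and 7.84 in 4F, 33 and 35.5 in ES and 10.2 and 10.2 in MEF. Id3, another BMP target, lay between ES and MEF in every clone.

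Other genes with large gaps below the range include ligands and surface proteins. Hbegf, a ligand of the EGF receptor, was at 7.05 and 8.36 RPKM in 3F+IL6, 7.57 and 8.28 in 4F, 46 and 46.5 in ES and 110.2 and 109 in MEF. Vegfc, a growth factor of lymphatic vessels, was at 1.58 and 2.31 RPKM in 3F+IL6, 1.57 and 1.56 in 4F, 14.7 and 17.2 in ES and 14.6 and 13.8 in MEF. Plaur, the urokinase receptor, was at 10.4 and 11.2 RPKM in 3F+IL6, 13.3 and 11.9 in 4F, 55.6 and 53.7 in ES and 201 and 194 in MEF. In all 3 the clones were close together and well under both references. Ptrf (cavin-1), which builds caveolae, was at 24.9 and 36.1 RPKM in 3F+IL6, 33 and 32.3 in 4F, 151 and 147 in ES and 368 and 366 in MEF, and Tspan2, a tetraspanin, at 0.344 and 0.599 RPKM in 3F+IL6, 0.528 and 0.588 in 4F, 5.53 and 5.96 in ES and 14 and 13.8 in MEF. Steap1, a membrane protein of the metalloreductase family, was at 5.04 and 6.78 RPKM in 3F+IL6, 7.62 and 6.37 in 4F, 33.8 and 36.8 in ES and 31.2 and 30.3 in MEF and lies beside Steap2, also below the range. Atf5, a stress-responsive transcription factor, was at 8.66 and 14.5 RPKM in 3F+IL6, 9.55 and 8.85 in 4F, 61.5 and 61.6 in ES and 80.9 and 80.9 in MEF. Ak3, a mitochondrial adenylate kinase, was at 1.18 and 2.8 RPKM in 3F+IL6, 1.4 and 1.15 in 4F, 13.9 and 14.4 in ES and 17.9 and 16.9 in MEF, and Wsb1, a ubiquitin ligase adaptor, at 12.1 and 17.5 RPKM in 3F+IL6, 11.1 and 18 in 4F, 66.6 and 63 in ES and 66.4 and 67.3 in MEF. Mras, a Ras-family GTPase chosen after its value was seen, was at 1.09 and 1.94 RPKM in 3F+IL6, 1.61 and 1.51 in 4F, 43.7 and 43.5 in ES and 5.92 and 6.8 in MEF, where ES was the outlying group. 3F+IL6 clone 2 was the highest clone for 60 of the 86 genes below the range (69.8%), and without it 196 genes were below. How often it was the highest clone over all genes tested was not counted. Over all genes tested, the median absolute difference was 0.18 log2 units between the 3F+IL6 clones and 0.1 between the 4F clones.

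**Figure D5:**
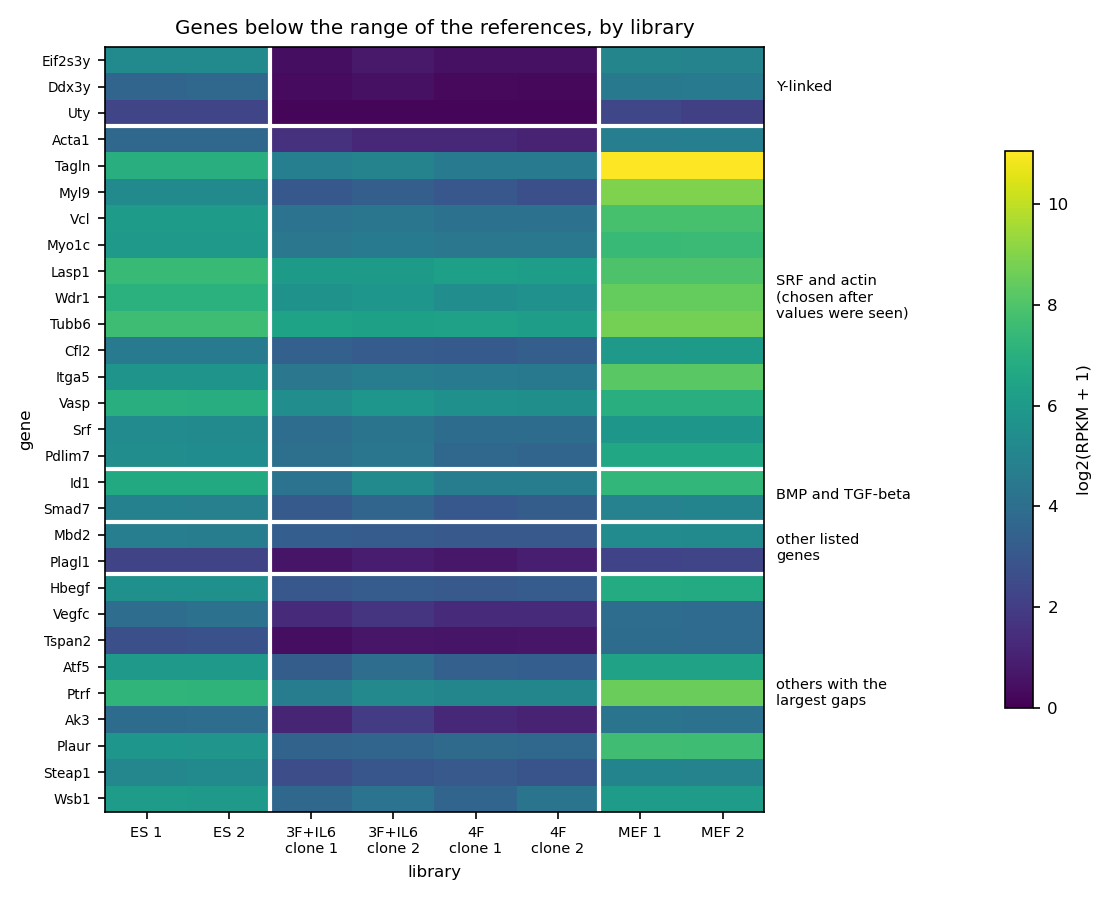
Colour gives log2(RPKM + 1) for the genes below the range described here (rows) in each library (columns), with white lines between gene groups and between groups of libraries. The 4 clone columns in the middle are darker than ES and MEF in every row; the Y-linked genes at the top are near 0 in the clones, and Tagln and Myl9 are brightest in MEF.

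The contrast between the kinds of clone was not itself used in choosing the genes outside the range. The choice did use the lowest or highest of the same 4 clone values, which limits the differences they can show. Shares and p-values given below for these genes are therefore not independent of the choice. limma on the 4 clones, with Benjamini-Hochberg adjustment over all genes tested, called 12 genes (0.0909%) different between 3F+IL6 and 4F. 1 of the 394 genes above the range (0.254%) and none of the 86 below it were among them. At an unadjusted p under 0.05 by limma there were 74 above the range (18.8%), 5 below it (5.81%) and 1413 over all genes tested (10.7%). A fit on all 8 libraries called 177 genes (1.34%), with 16 of the 394 (4.06%) and 1 of the 86 (1.16%). Of the 12 genes, 11 were, by their symbols, small RNAs, histone genes or other RNAs without a poly-A tail, 10 of them lower in 3F+IL6 and 1 higher, in libraries selected for poly-A. Rpph1, the RNA of RNase P, was at 6.35 and 3.57 RPKM in 3F+IL6, 119 and 107 in 4F, 14.3 and 192 in ES and 1.31 and 44.1 in MEF, so it also differed within the ES and MEF pairs. The part of this in the comparison was not tested. The other gene called was Pim2, a kinase induced by cytokines through STAT factors. It was at 101 and 108 RPKM in 3F+IL6, 43.1 and 43.7 in 4F, 7.66 and 7.37 in ES and 2 and 1.93 in MEF. Both 3F+IL6 clones were above both 4F clones, by 1.25 log2 units (SE 0.0779, adjusted p = 0.0291 by limma with Benjamini-Hochberg adjustment). The call was lost without 4F clone 1 (adjusted p = 0.246) or 4F clone 2 (0.244) in limma, and without 3F+IL6 clone 2 (0.0528). Of the 17 genes of the IL6 and LIF pathway, Pim2 was the gene above the range (5.88%, against 2.98% of all genes tested), and limma placed 5, Il6ra, Il6st, Jak1, Jak2 and Ptpn11, below both references (29.4%, against 10.6%).

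Among the genes above the range, the next largest differences toward 3F+IL6 did not pass. Lcn2 differed by 1.30, Vrtn by 1.15, Pou3f1 by 1.08 and Rtp4 by 1.02 log2 units, with adjusted p from 0.209 to 0.436 by limma. Toward 4F, Ushbp1 was at 2.82 and 2.98 RPKM in 3F+IL6 and 5.53 and 5.17 in 4F, a difference of -0.70 (adjusted p = 0.368 by limma). The other genes furthest toward 4F were Lpin1, Bhlha15, Cyp2s1 and Ypel2. Below the range, the largest differences were those of Ctdsp1, at 0.79, and Pdlim7, at 0.53. The remaining genes set apart by this measure were Phlda1, Gm10393 and 6030419C18Rik toward 3F+IL6 and Zfp800, Gm53, Ddah1, Steap1 and Coch toward 4F, and none passed. With 2 clones of each kind, these tests measure the spread of 2 clones only. The median absolute difference between the 3F+IL6 clones was 0.29 over the genes above and 0.26 over those below, and between the 4F clones 0.13 and 0.1. Over all genes tested it was 0.18 between the 3F+IL6 clones and 0.1 between the 4F clones.

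Replicate numbers gave a second look at the count. With the first library of each group alone, 635 genes (4.81%) were above the range and 237 (1.8%) below. Of these, 425 (66.9%) and 94 (39.7%) also met the choice in the second libraries, where 508 (3.85%) and 106 (0.803%) met it in all. At the threshold, Ntn1 and Tmem213 were just inside above the range, with gaps of 1.0004 and 1.0009, and Capn5 and Dennd1c just outside, at 0.9996 and 0.9973. Below it, Ctif and Mesdc1 were just inside, at 1.0055 and 1.0062, and Tead1 and Zfp282 just outside, at 0.9949 and 0.9836. For 135 of the 394 genes above (34.3%), the lowest clone was under 5 RPKM, where the added 1 shortens the gap most.

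By position, genes above the range made up 5.68% of those tested on the X, 5.13% on chromosome 12 and 4.68% on chromosome 17. On chromosome 19 the share was 0.901%, and over all genes tested it was 2.98%. Of the 389 placed genes above the range, 102 (26.2%) had another such gene within 100 kb, against 11.1% of all 13029 placed genes. Below it, 9 of 84 did (10.7%), against 2.35%. Neighbours formed 45 runs above and 4 below. Besides those already given, Cldn6, Cldn9 and Ccdc64b lay at chr17:23660506-23684026, Cldn4 and Cldn3 at chr5:134945119-134987472, and the carbonyl reductases Cbr1 and Cbr3 at chr16:93605853-93690990. On the X, Gm9, Rhox2a and Rhox4a lay at chrX:37209348-37270132 and Xlr5b, Xlr3c and Xlr5c at chrX:73148796-73292976; members of the Rhox and Xlr families are near-identical, so their values are uncertain. The median promoter window of the genes above the range held 11.5 CpG dinucleotides, against 20 in the genes below and in all genes tested.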

How the data were processed

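Poly-A RNA was sequenced from 8 mouse libraries in 4 groups of 2. Per the labels' protocols, each TruSeq library started from 500 ng of total RNA selected with oligo-dT beads. The submitters' processing notes name the build mm10; for the aligner, counting tool and gene models, the sources used here give none. The deposited tables hold 1 value for each of 23389 gene symbols, and no header names the unit. They were read as RPKM, because low deposited values times transcript length fell near whole multiples of 1 step per library. That step gave the estimated depths. Only 52.6% to 57.9% of low values were whole within 0.1 read, so no count test was run.

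Values were put on the log2(RPKM + 1) scale, and the 13200 genes that reached an RPKM of 1 in 2 or more libraries were tested. A difference on this scale understates the change of low genes. limma 3.58.1 in R 4.3.3, with group as its term and a trended variance, fitted all 8 libraries for the clones against the references and the 4 clones alone for 3F+IL6 against 4F. Benjamini-Hochberg adjustment ran over all 13200 genes per contrast, and the threshold was 0.05. A gene counted as higher or lower than both references when all 4 contrasts passed with the same sign. The fits were tested on simulated data.

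Genes were named by a rule. It takes the 20 largest gaps above the range whose lowest clone reached 5 RPKM and the 15 largest below it whose lowest reference did, without unnamed predicted genes. It adds up to 5 genes per list and direction, the 4 reprogramming factors, the 2 genes on each side of the threshold, and the 5 with the largest differences between 3F+IL6 and 4F in each direction. Further genes of the lists are named to describe them, chosen after their values were seen. The genes outside the range and the lists were chosen with earlier results of these data known, and the SRF and actin list after the values were seen. Some members of lists that the rule could name are given only in counts. A gene that the rule names is left unreported here.

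Gene positions (mm10, counted from 1) came from GENCODE M21. It held 21024 of the symbols; RefSeq gave 205 more by symbol and 1892 by synonym, and 268 had no match. Promoter windows came from RefSeq (GRCm38.p6). They were matched by symbol for 306 of the 392 genes above the range with a current symbol, and for 63 of 84 below. Motifs were searched on both strands as ACGTG, GAAANNGAAA and the CArG box; CACGTG holds ACGTG on both strands and counts as a match. Reads shared between near-identical genes, overlapping genes or antisense partners were not resolved. Alternatives tried were the pseudocount, the filter, median centring, quantile normalization, the gap, the replicate block, the variance trend and leaving out each library; the first and second libraries of each group alone were added after seeing the data.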

Additional observations from a re-analysis of the deposited data

Results flagged for a closer look

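Pim2, the kinase gene on the X chromosome, was above the range in all 4 clones and also differed between the kinds of clone. It was 1.25 log2 units higher in 3F+IL6 than in 4F (adjusted p = 0.0291 by limma on the 4 clones with Benjamini-Hochberg adjustment; higher in 2 of 2 clones). The adjusted p was 0.0595 with the replicate block, 0.0909 without the variance trend and 0.26 without the filter, so the call was lost in those limma fits.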

How the results depend on the processing

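The 394 genes above the range became 1081 at a gap of 0.5, 74 at a gap of 2, 677 with a pseudocount of 0.1 and 216 at a mean RPKM of at least 5. The 86 below became 444, 9 and 148 under the first 3 of these, and 140 after quantile normalization. With the first library of each group alone the counts were 635 and 237. After quantile normalization 309 of the 394 and 84 of the 86 were kept, and after median centring 366 and 86. Leaving out 1 library, which can only add genes, gave 401 to 528 genes above and 87 to 196 below. The highest counts came without 3F+IL6 clone 2. The limma count above both references was 1503 at a mean RPKM of at least 5 and 1840 to 2647 without 1 library; the count below was 1053 to 1879 without 1 library.

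The 12 genes called between 3F+IL6 and 4F became 177 with all 8 libraries in the fit, 7 at a mean RPKM of at least 5, and 0 without the filter, where limma left 1942 at an unadjusted p under 0.05. Leaving out 1 clone gave 0 to 224: limma called 224 when 3F+IL6 clone 1 was left out and 0 when either 4F clone was, with 371 and 411 at an unadjusted p under 0.05. The lone clone left in a pair is assumed to vary like the other pair. The replicate block gave 2 calls here, 2323 above both references and 1390 below. The labels do not tie equal numbers together, and deviations of equal numbers correlated at -0.06 to 0.21 over all genes tested, so the numbers were not taken as pairs; the 0.21 was between ES and MEF, where the second library of each was higher for Rpph1 (14.3 and 192 RPKM in ES, 1.31 and 44.1 in MEF). Of the differences between the kinds of clone for named genes, Ddah1 ranged from -0.574 to 0.002 and 6030419C18Rik from -0.134 to 0.929 as 1 clone was left out, so both turned sign, Ddah1 with 3F+IL6 clone 1 out and 6030419C18Rik with 3F+IL6 clone 2 out; the cause was not tested. The gaps of 105 named genes kept their direction under every setting run on them, but most settings could not have turned them. Leaving out a library or lowering the pseudocount can only widen a gap, and the filter leaves it unchanged. Only median centring and quantile normalization could narrow a gap. The 105 include the genes just outside the threshold, whose gaps were under 1 from the start. Gaps were rounded before counting, which lifts Capn5 from 0.9996 to 1 where its gap is unchanged. On this count, 102 of the 105 gaps were at least 1 without the filter, 102 after median centring and 95 after quantile normalization. At a mean RPKM of at least 5, only 81 of the 105 genes were tested. Depth limits genes of low RPKM most.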
